A study of Caenorhabditis elegans with 14 samples.

Results

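RNA of whole Caenorhabditis elegans worms at the L3 larval stage was compared between XO hermaphrodites and XX males, animals in which the number of X chromosomes and the sex are uncoupled. The XO hermaphrodites were of strain TY2205 and the XX males of strain CB5362, each with 3 libraries, which make 6 of the 14 samples of the series. Larvae of both strains were collected after 24 h of growth that followed overnight hatching, and the labels give no temperature for them. The labels name the strains but no alleles. As background, TY2205 is known to carry mutations in her-1, sdc-3 and xol-1, and CB5362 in tra-2 and xol-1, so that a defect in xol-1 is shared. The tra-2 allele of CB5362 is known to be temperature-sensitive, and 1 further TY2205 sample, of young adults, is labelled a reverted mutant and was not used. Strain, sex and number of X chromosomes all change between the groups and cannot be told apart here, and no wild-type larvae are among the 6 libraries. Genes were taken if their level averaged 1 FPKM or more over the 6 libraries, where FPKM is fragments scaled by transcript length and by the mapped fragments of the library, which gave 13478 of the 20376 genes with values.

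In wild-type worms, animals with 2 X chromosomes become hermaphrodites and animals with 1 become males. The X-linked gene xol-1 is the early switch that promotes the male fate, the secreted protein HER-1 carries the male signal between cells by binding the membrane protein TRA-2, and TRA-1 is the transcription factor that ends the pathway and represses male genes. The L3 stage is when the gonad grows, germ cells enter meiosis, vulval precursor cells are specified in hermaphrodites and the tail precursors begin to divide in males. Sperm are made from the L4 stage in both sexes, and a hermaphrodite turns to oocytes as an adult. Since whole worms were used, fewer cells of a type and less RNA per cell cannot be told apart in any result below.

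The libraries of a group were not alike, so each library is shown. XO hermaphrodite replicates 2 and 3 had a Spearman correlation of 0.975. XO hermaphrodite replicate 1 had 0.884 and 0.896 with them and 0.93 and 0.909 with XX male replicates 2 and 3. XX male replicate 1 had correlations of 0.817 to 0.901 with the other 5 libraries. In it 662 genes lay at least 1 log2 unit above every other library, against 14 to 169 in the remaining libraries. The depth is not recorded. A rough estimate was the most common ratio to XX male replicate 3 among genes above 0 and below 0.6 FPKM in both libraries. That ratio was held by 161 to 333 genes per library. It put XO hermaphrodite replicates 1 to 3 at 0.243, 0.248 and 0.871 of the depth of XX male replicate 3. XX male replicates 1 and 2 were put at 0.319 and 0.299. By this estimate low values are least precise in both replicates 1 and both replicates 2. The sums of FPKM were 1317410.0, 1524520.0 and 1574090.0 in XO hermaphrodites, against 1289640.0, 1216740.0 and 1225600.0 in XX males, and the median gene stood 0.24 log2 units lower in XO hermaphrodites (-0.01 with upper quartile scaling). Differences of lists are therefore also given relative to that median gene. The defining markers of larval tissues were detected in all 6 libraries, where elt-2 (intestine) lay between 8.61 and 16.6 FPKM, unc-54 (body wall muscle) between 917 and 1578, snt-1 (neurons) between 10.0 and 22.9 and dpy-7 (epidermis) between 69 and 221. The sensory neuron genes lov-1 and pkd-2, which mark the male tail and head in adults, stayed below 0.1 FPKM in every library.

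**Figure D1:**
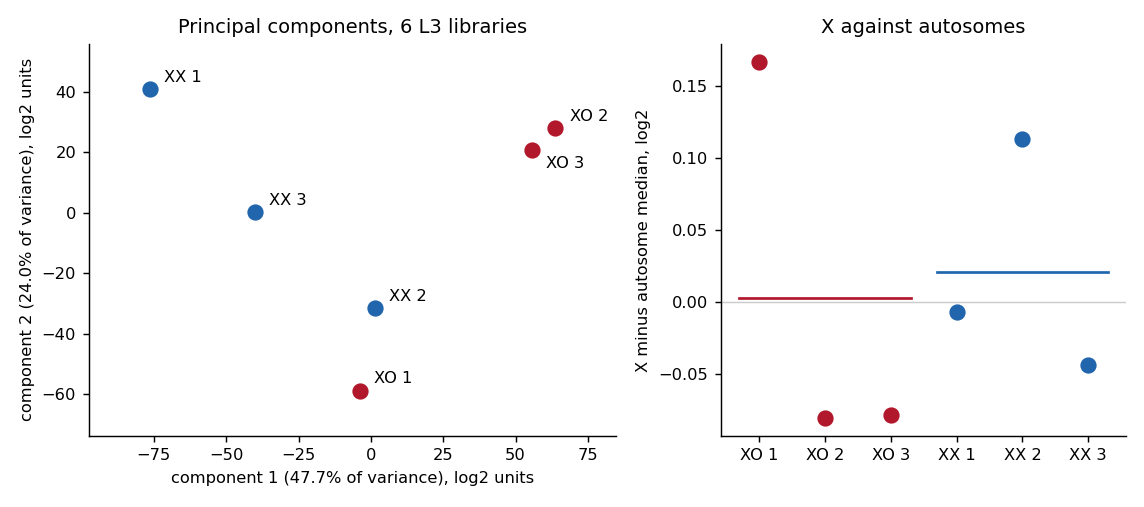
Left, principal components of log2(FPKM + 1) over 13478 genes; right, the median X-linked gene minus the median autosomal gene in each library, genes centred on their mean over the 6 libraries, with horizontal lines at the group means (XO hermaphrodites red, XX males blue). XO 2 and XO 3 lie together, XO 1 lies nearest XX 2, and the X minus autosome values of the groups overlap.

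At an adjusted p under 0.05 (limma on log2(FPKM + 1), Benjamini-Hochberg over the 13478 genes), 4 genes were higher in XO hermaphrodites, 0.0297% of those tested, and 5 were lower, 0.0371%. At an unadjusted p under 0.05 there were 465 higher and 1413 lower. As a description with no test, 225 genes (1.67%) lay higher in all 3 XO hermaphrodite libraries than in any XX male library with a mean log2 difference of at least 1, and 541 genes (4.01%) lay lower in the same sense. Genes of these 2 kinds are called separated below, and each list is read beside those percentages. With upper quartile scaling the split was 412 higher and 307 lower, so the excess of lower genes depends on the scaling. Without XO hermaphrodite replicate 1 the numbers were 519 higher and 2131 lower, and without XX male replicate 2 they were 395 and 1433, so list counts without these libraries are read beside them. Of the 13478 genes 12376 reached a mean of 1 FPKM in both groups, and 1.44% of those were separated and higher and 3.16% lower; a gene that passed only through the group where it was high had to differ. With 3 libraries against 3, an exact permutation test of a single value cannot give a p below 0.1. The labels do not say whether replicates were separate cultures, and p-values then measure only the spread between these samples.

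The 4 genes that were called higher were hil-7, hsp-12.3, dpy-14 and F14D2.5, and none of their libraries overlapped between the groups. Of these, hsp-12.3 and F14D2.5 passed the filter only through the XO hermaphrodites, with XX male means of 0.893 and 0.926 FPKM. The gene hil-7 on chromosome IV, which encodes a linker histone, had 101, 90.9 and 99.6 FPKM in XO hermaphrodites, against 16.7, 15.3 and 15.5 FPKM in XX males. Its log2 difference was 2.54 (SE 0.24, limma adjusted p = 0.0249), and the values within each group were nearly equal. The gene hsp-12.3, also on chromosome IV, which encodes a small heat shock protein, had 19.5, 14.2 and 15.9 FPKM in XO hermaphrodites, against 0.481, 0.512 and 1.69 FPKM in XX males. The cuticle collagen gene dpy-14 on chromosome I had 13.7, 27 and 25.5 FPKM in XO hermaphrodites, against 0.645, 0.859 and 1.75 FPKM in XX males, with XO hermaphrodite replicate 1 the lowest of its group. F14D2.5 on chromosome II had 11.6, 13.3 and 12.7 FPKM in XO hermaphrodites, against 0.737, 1.57 and 0.471 FPKM in XX males. Their log2 differences were 3.26 (SE 0.33), 3.45 (SE 0.36) and 2.85 (SE 0.31), each with a limma adjusted p of 0.0249.

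For hil-7, dpy-14 and F14D2.5 the young adults of the same strains, grown for 44 h at 25 °C, had the same order. The hil-7 level was 12.5, 23.6 and 14.1 FPKM in the 3 libraries of XO hermaphrodite adults, against 4.68, 4.34, 8.35 and 8.54 FPKM in the 4 of XX male adults. The dpy-14 level was 10.23, 15.8 and 9.54 FPKM in XO hermaphrodite adults, against 0.946, 0.551, 0.916 and 1.51 FPKM in XX male adults, and that of F14D2.5 was 9.41, 10.1 and 6.72 FPKM in XO hermaphrodite adults, against 1.3, 1.18, 0.698 and 2.24 FPKM in XX male adults. For hsp-12.3 the adult groups overlapped, with 9.8, 5.25 and 5.37 FPKM in XO hermaphrodite adults, against 12.11, 9.84, 10.0 and 7.64 FPKM in XX male adults. The larval and adult values are set side by side here and below, and the difference between the stages, which also differ in growth time, was not tested.

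The 5 genes called lower were Y17D7B.10, nhr-131, cpb-1, mab-3 and K08H10.2, of which Y17D7B.10, nhr-131 and K08H10.2 lie on chromosome V. Of the 5, Y17D7B.10, nhr-131 and cpb-1 passed the filter only through the XX males. Y17D7B.10 was listed at 0 in all 3 XO hermaphrodite libraries, against 1831, 1949 and 1604 FPKM in XX males (limma adjusted p = 6.24e-07). A listed 0 can be a failed estimate for this gene: in young adults of the same strains it was listed at 0 in XO hermaphrodite replicate 1 and in XX male replicate 1, but at 2113 and 1041 FPKM in the other XO hermaphrodite libraries and at 1694, 867 and 2140.3 FPKM in the other XX male libraries. Among the 1804 genes that reached 100 FPKM in some L3 library, 17 were listed at 0 in another, and Y17D7B.10 was the only 1 of them with 0 in all XO hermaphrodite and a value in all XX male libraries. The nuclear hormone receptor gene nhr-131 was likewise listed at 0 in all XO hermaphrodite libraries, against 6.2, 8.24 and 6.16 FPKM in XX males (limma adjusted p = 0.0274), and it was also at 0 in all 3 XO hermaphrodite young adult libraries, against 3.98, 3.74, 3.72 and 5.65 FPKM in the 4 of XX males.

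The germline gene cpb-1 on chromosome III, a cytoplasmic polyadenylation element binding protein gene needed for sperm formation, had 1.01, 0.416 and 0.617 FPKM in XO hermaphrodites, against 18.3, 11.5 and 11.5 FPKM in XX males, a log2 difference of -3.12 (SE 0.32, limma adjusted p = 0.0249). The DM-domain transcription factor gene mab-3 on chromosome II, which directs male neurons and tail structures and keeps yolk genes off in the male intestine, had 3.07, 1.42 and 1.46 FPKM in XO hermaphrodites, against 111, 30.03 and 59.9 FPKM in XX males (-4.36 log2, SE 0.47, limma adjusted p = 0.0249). K08H10.2 had 11.2, 6.87 and 6.67 FPKM in XO hermaphrodites, against 60.4, 48.4 and 68.2 FPKM in XX males (-2.72 log2, SE 0.29, limma adjusted p = 0.0249). K08H10.3, also on chromosome V, was separated without a call, at 12, 0 and 1.46 FPKM in XO hermaphrodites against 91.8, 62.4 and 78.5 FPKM in XX males (limma adjusted p = 0.16). In young adults cpb-1 did not show the larval pattern, with 37.8, 41 and 37.4 FPKM in XO hermaphrodites and 38.3, 38.5, 36 and 65.5 FPKM in XX males, while mab-3 had 2.0, 1.18 and 0.799 FPKM in XO hermaphrodites and 103.6, 103.6, 99.8 and 100.3 FPKM in XX males. K08H10.2 kept its order, with 17.3, 15.9 and 17.9 FPKM in XO hermaphrodite adults, against 50.5, 49.96, 44.1 and 69.7 FPKM in XX male adults.

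The calls, unlike the sizes of the differences, depended on single libraries. Y17D7B.10 was called in all 6 limma fits that left out 1 library. Without XO hermaphrodite replicate 1 the other 8 genes were called as well, and without XX male replicate 2 hil-7, F14D2.5 and mab-3 were, while without any of the other 4 libraries none of the 8 was called. Their log2 differences kept their sign, lying between 2.51 and 2.59 for hil-7, between 3.28 and 3.74 for dpy-14 and between -4.83 and -3.91 for mab-3. Leaving out XO hermaphrodite replicate 1 gave 279 genes higher and 1812 lower in place of 4 and 5, in a fit of 2 libraries against 3.

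**Figure D2:**
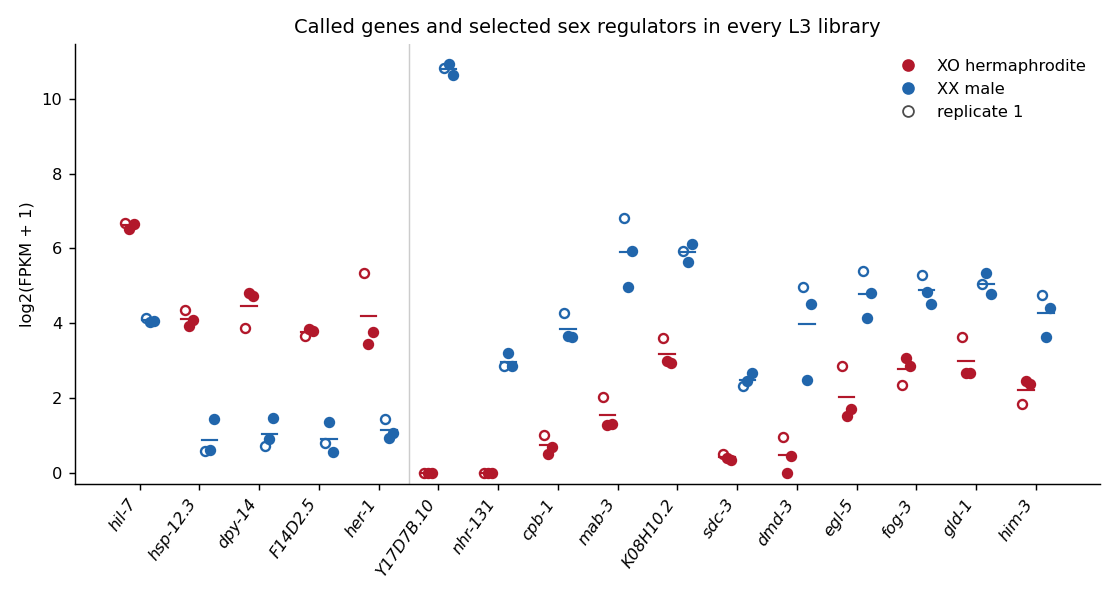
Level of 16 genes as log2(FPKM + 1) in each of the 3 XO hermaphrodite (red, left of each pair) and 3 XX male libraries (blue, right), with horizontal lines at group means and replicate 1 as an open circle; genes left of the grey line were higher in XO hermaphrodites. No gene shown has overlapping groups, and only hil-7, hsp-12.3, dpy-14, F14D2.5, Y17D7B.10, nhr-131, cpb-1, mab-3 and K08H10.2 were called.

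Among the genes altered in these strains, xol-1 was listed at 0 in all 6 libraries. The her-1 transcript was separated and higher in the strain that carries the her-1 mutation, at 39.8, 9.83 and 12.5 FPKM in XO hermaphrodites, against 1.69, 0.902 and 1.082 FPKM in XX males, with a log2 difference of 3.04 (SE 0.49, limma adjusted p = 0.144). A second altered gene, sdc-3, which encodes a zinc finger protein of sex determination and dosage compensation, was separated and lower, at 0.416, 0.3004 and 0.265 FPKM in XO hermaphrodites, against 3.95, 4.43 and 5.31 FPKM in XX males (-2.06 log2, SE 0.34, limma adjusted p = 0.144). For both genes XO hermaphrodite replicate 1 lay on the same side of the XX males as its 2 partners. For her-1 it stood well above them, and the log2 difference without it was 2.46. For tra-2, mutated in CB5362, the groups overlapped, with 17.9, 7.25 and 7.63 FPKM in XO hermaphrodites, against 14.9, 15 and 17.1 FPKM in XX males. These values check the strains only as far as the mutations affect transcript levels.

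Of the 11 tested regulators of sex determination, her-1 was the only one separated and higher, and fem-3 the only one lower, against 4 lower without XO hermaphrodite replicate 1. The gene fem-3, which promotes male fate and acts between tra-2 and tra-1, was at 1.93, 0.95 and 1.12 FPKM in XO hermaphrodites, against 3.87, 4.32 and 5.29 FPKM in XX males. The terminal regulator tra-1 had 41.1, 10.15 and 12.07 FPKM in XO hermaphrodites, against 46.8, 59.3 and 32.4 FPKM in XX males, so that replicate 1 of the XO hermaphrodites lay among the XX males. The gene fem-2, which acts with fem-3, overlapped, at 19.7, 18.1 and 17.9 FPKM in XO hermaphrodites and 19.5, 16.9 and 20.2 FPKM in XX males. The X signal elements sex-1 and fox-1, which count X chromosomes in the embryo, lay between 3.3 and 8.73 FPKM and between 6.83 and 15.2 FPKM with overlapping groups.

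The dosage compensation complex lowers transcription from both X chromosomes in XX animals, and SDC-2 brings it to the X. Of its 10 genes sdc-3 was the only one separated, against 3 genes without XO hermaphrodite replicate 1 or without XX male replicate 2 and 2 without XX male replicate 3. The gene sdc-3, itself altered in TY2205, passed the filter only through the XX males. With all libraries none of the 9 genes with a mean of 1 FPKM in both groups was separated. The median difference of the 10 was -0.67 on the log2 scale, or -0.43 relative to the median gene, and it was -0.88 without XO hermaphrodite replicate 1. The X-recruiting gene sdc-2 had 3.34, 1.17 and 0.866 FPKM in XO hermaphrodites, against 1.93, 3.04 and 2.74 FPKM in XX males. The condensin subunit genes dpy-28 and capg-1 had 7.16, 6.64 and 5.52 FPKM and 12.7, 6.39 and 5.89 FPKM in XO hermaphrodites, against 13.7, 14.8 and 10.8 FPKM and 15.4, 14 and 18.2 FPKM in XX males, all without a call. For dpy-28 the groups did not overlap, at a mean log2 difference of -0.92, and for capg-1 they did not overlap either, at -0.92, both short of the size set for separated genes.

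Of the 12 tested genes that act in the male soma and tail, 5 were separated and lower in XO hermaphrodites (41.7% against 4.01% of all genes) and none higher. Of these 12 genes dmd-3 and lin-32 passed the filter only through the XX males; of the other 10, 4 were separated and lower. The 5 were mab-3, dmd-3, egl-5, mab-23 and mab-10, and the median of the 12 was -1.11, or -0.87 relative to the median gene. The gene dmd-3, which drives the retraction of the male tail tip, had 0.944, 0 and 0.353 FPKM in XO hermaphrodites, against 30.4, 4.52 and 21.7 FPKM in XX males (-3.52 log2, SE 0.63, limma adjusted p = 0.167), with XX male replicate 2 well below the other XX males. The Hox gene egl-5, which patterns the male tail, had 6.24, 1.86 and 2.27 FPKM in XO hermaphrodites, against 41.4, 16.6 and 27 FPKM in XX males. For mab-23, a DM-domain gene that acts in male tail neurons and muscles, the values were 2.83, 2.72 and 1.22 FPKM in XO hermaphrodites, against 19.7, 12.9 and 22.7 FPKM in XX males. The tail genes mab-9 and mab-21 overlapped between the groups, with 3.64, 3.88 and 2.21 FPKM and 14.9, 13.8 and 14.5 FPKM in XO hermaphrodites, against 4.52, 3.45 and 6.02 FPKM and 13.9, 19.4 and 19.4 FPKM in XX males. For the neurogenic gene lin-32, which acts in the rays of the male tail, the XX males were split, with 0.542, 0.534 and 0.609 FPKM in XO hermaphrodites, against 8.7, 0 and 4.76 FPKM in XX males. Without XO hermaphrodite replicate 1, 7 genes of this list were separated and lower, and without XX male replicate 1, 5.

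Of the 9 DM-domain genes tested, mab-3, mab-23 and dmd-3 were separated, while the DM-domain gene dmd-6 had 96.7, 46.1 and 50.1 FPKM in XO hermaphrodites, against 46.7, 72.1 and 44 FPKM in XX males. Of 6 Hox genes egl-5 alone was separated. The vulval Hox gene lin-39 had 21.9, 17.2 and 12.4 FPKM in XO hermaphrodites, against 7.98, 13.2 and 11.8 FPKM in XX males, with overlapping groups. Of the 9 genes of the male ciliated sensory neurons only 3 reached a mean of 1 FPKM, and cwp-1, named for its coexpression with the polycystins of male sensory neurons, was at 0, 0 and 0.567 FPKM in XO hermaphrodites, against 7.71, 0.821 and 6.4 FPKM in XX males.

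Genes of the vulva, anchor cell and uterus had 2 of 18 tested genes separated and lower and none higher, against 1 higher and 1 lower with upper quartile scaling, 4 lower without XO hermaphrodite replicate 1 and 1 lower without XX male replicate 1 or XO hermaphrodite replicate 3. The fibroblast growth factor gene egl-17, a marker of vulval precursor cells, had 2.27, 2.56 and 2.97 FPKM in XO hermaphrodites, against 0.842, 1.18 and 0.832 FPKM in XX males. Its groups did not overlap, but its log2 difference of 0.89 (SE 0.34, limma adjusted p = 0.343) was short of 1, and it was 1.05 with upper quartile scaling and 1.33 with quantile normalization. The separated gene hlh-2, which encodes the E protein of anchor cell specification, was at 9.24, 3.93 and 2.65 FPKM in XO hermaphrodites against 13.4, 12.9 and 12.9 FPKM in XX males. The other separated gene was apx-1, of a Notch ligand, at 2.46, 1.86 and 1.63 FPKM in XO hermaphrodites against 6.52, 5.54 and 4.32 FPKM in XX males. The epidermal growth factor gene lin-3 had 3.88, 2.7 and 2.36 FPKM in XO hermaphrodites, against 5.84, 11 and 4.11 FPKM in XX males.

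Lists of germline genes held larger shares of separated lower genes than all genes did. Of the 18 regulators of germ cell fate, 7 were separated and lower (38.9%) and none higher, with a median of -1.09, or -0.85 relative to the median gene. Leaving out cpb-1, which passed the filter only through the XX males, 6 of 17 were separated and lower. The sperm-promoting genes fog-3 and fog-1 were among them. The fog-3 transcript had 4.1, 7.4 and 6.27 FPKM in XO hermaphrodites, against 37.8, 27.6 and 21.9 FPKM in XX males (-2.12 log2, SE 0.31, limma adjusted p = 0.104). The fog-1 transcript had 7.6, 11.2 and 9.53 FPKM in XO hermaphrodites, against 24.7, 26.1 and 26.9 FPKM in XX males, with no overlap (-1.38 log2, SE 0.25, limma adjusted p = 0.173). The gene gld-1, a translational repressor with roles in meiotic entry and in oocyte development, was also separated, at 11.4, 5.38 and 5.38 FPKM in XO hermaphrodites, against 32, 39.9 and 26.6 FPKM in XX males (-2.07 log2, SE 0.34, limma adjusted p = 0.144). The RNA-binding protein gene daz-1 had 14.7, 8.52 and 10.4 FPKM in XO hermaphrodites, against 30.9, 47.5 and 33.9 FPKM in XX males. The groups overlapped for fog-2, which permits sperm in hermaphrodites and had 4.63, 4.17 and 4.17 FPKM in XO hermaphrodites, against 4.45, 4.08 and 5.81 FPKM in XX males.

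The order of gld-1 and glp-1 was the opposite in the young adults of the same strains, and this was not particular to them. Of the separated genes named here and below, lag-1, him-3, htp-2, syp-4, pgl-3, ego-1 and R06C7.1 had the opposite order in adults too. So did set-2, cdk-2, cye-1, oma-1, mex-5 and cbd-1, all without overlap of the adult groups. The adult groups overlapped for cyb-1, and fog-1 kept the larval order. The stem cell receptor gene glp-1, of the Notch family, had 3.74, 2.28 and 2.97 FPKM in XO hermaphrodite larvae, against 8.41, 7.59 and 10.4 FPKM in XX male larvae (-1.30 log2, SE 0.28, limma adjusted p = 0.21). In young adults glp-1 had 76.5, 82.4 and 65.9 FPKM in XO hermaphrodites, against 5.71, 5.7, 5.76 and 7.7 FPKM in XX males. The gene gld-1 had 371, 419.9 and 374 FPKM in XO hermaphrodites, against 58.1, 62.9, 54.2 and 82.9 FPKM in XX males. For fog-3 the adults kept the larval order, with 3.4, 2.54 and 1.3 FPKM in XO hermaphrodites, against 51.8, 55.6, 48.5 and 62.4 FPKM in XX males. Among the 10 genes of germline stem cells and Notch signalling glp-1 and lag-1 were separated, and 1 gene was with upper quartile scaling and without XO hermaphrodite replicate 3, XX male replicate 1 or XX male replicate 3. The FBF genes fbf-1 and fbf-2 had 3.59, 4.65 and 3.34 FPKM and 3.8, 4.27 and 4.22 FPKM in XO hermaphrodites, against 8.37, 8.91 and 7.45 FPKM and 8.3, 5.87 and 8.09 FPKM in XX males.

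Of the meiosis genes 18 of 33 were separated and lower (54.5%) and none was higher. All 18 were among the 32 genes that reached a mean of 1 FPKM in both groups. The median of the 33 was -1.05, or -0.80 relative to the median gene. With upper quartile scaling 8 of the 33 were separated and lower, against 5 of 12 male soma and tail genes and 6 of 18 germ cell fate genes, so the order of the lists depends on the scaling. Their summed level was 118, 214 and 259 FPKM in XO hermaphrodites, against 404, 347 and 444 FPKM in XX males. They included axis genes that organise chromosomes: him-3 had 2.54, 4.43 and 4.18 FPKM in XO hermaphrodites, against 25.9, 11.4 and 20.1 FPKM in XX males. The gene htp-2 had 1.34, 2.56 and 2.48 FPKM in XO hermaphrodites, against 15.1, 8.96 and 9.4 FPKM in XX males. The genes syp-1, syp-2, syp-3 and syp-4 of the synaptonemal complex, which holds paired chromosomes together, were all separated, and syp-4 stood at 2.59, 3.4 and 4.52 FPKM in XO hermaphrodites against 14.2, 9.21 and 18.5 FPKM in XX males. The meiotic cohesin gene rec-8 had 5.38, 7.52 and 6.06 FPKM in XO hermaphrodites, against 13.9, 14.2 and 14 FPKM in XX males. The checkpoint kinase gene chk-2 had 2.04, 0.884 and 1.19 FPKM in XO hermaphrodites, against 5.31, 3.07 and 3.87 FPKM in XX males. XO hermaphrodite replicate 1 had the lowest sum of the 6 libraries. Without it 11 of the 33 were separated and lower, and 15 were without XX male replicate 1.

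P granules are the RNA granules of germ cells, and germline small RNA pathways work in and around them. Of the 21 genes tested 9 were separated and lower (42.9%), and none was higher. T22B3.2 and tag-76 passed the filter only through the XX males; of the other 19, 8 were separated and lower and all lay below the median gene. With upper quartile scaling 6 of the 21 were separated and lower. The P granule gene pgl-3 had 4.2, 5.81 and 9.3 FPKM in XO hermaphrodites, against 28.1, 9.85 and 20.7 FPKM in XX males. The RNA-dependent RNA polymerase gene ego-1 had 2.73, 1.77 and 1.88 FPKM in XO hermaphrodites, against 7.46, 5.55 and 8.75 FPKM in XX males. The gene R06C7.1, the Argonaute gene wago-1, had 14.6, 12.06 and 13 FPKM in XO hermaphrodites, against 48, 23.1 and 37.2 FPKM in XX males. T22B3.2, the sperm Argonaute gene alg-3, was highest in XX male replicate 1, at 0, 0.0586 and 0.134 FPKM in XO hermaphrodites against 12.5, 0.387 and 1.07 FPKM in XX males. The core markers pgl-1 and glh-1 overlapped, with 14.8, 25.1 and 30.8 FPKM and 36, 86.9 and 88.4 FPKM in XO hermaphrodites, against 46.7, 29.8 and 45.1 FPKM and 113, 78.3 and 139 FPKM in XX males.

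Cell division genes followed at a smaller share, with 6 of 28 separated and lower (21.4%; 1 with upper quartile scaling). The kinase gene cdk-2 had 4.89, 1.54 and 1.98 FPKM in XO hermaphrodites, against 11.8, 11.5 and 8.82 FPKM in XX males. The cyclin B gene cyb-1 had 16.43, 20.1 and 17.4 FPKM in XO hermaphrodites, against 57.4, 39.7 and 38 FPKM in XX males. The cyclin E gene cye-1 had 7.3, 5.13 and 4.22 FPKM in XO hermaphrodites, against 13.7, 11.2 and 13.4 FPKM in XX males. Of 8 germline chromatin regulators set-2, a histone H3 lysine methyltransferase gene, was the only one separated, against 3 without XO hermaphrodite replicate 1 and 2 without XO hermaphrodite replicate 2 or any 1 XX male library, at 7.56, 3.12 and 3.66 FPKM in XO hermaphrodites against 16, 14.6 and 15.6 FPKM in XX males.

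Of the 25 genes of the oocyte and eggshell list, 3 were separated and lower, namely oma-1, mex-5 and cbd-1, and only cav-1 was separated and higher. The lower count was 7 without XO hermaphrodite replicate 1 and 5 without XX male replicate 1 or 3. The gene oma-1, which controls translation in oocytes and their maturation, had 2.32, 2.06 and 1.86 FPKM in XO hermaphrodites, against 12.65, 6.46 and 6.43 FPKM in XX males. The gene mex-5, whose protein polarises the early embryo, had 5.04, 4.96 and 3.97 FPKM in XO hermaphrodites, against 20.1, 12 and 10.8 FPKM in XX males. The caveolin gene cav-1 had 13.7, 22 and 19.3 FPKM in XO hermaphrodites, against 4.51, 2.57 and 7.14 FPKM in XX males (1.81 log2, SE 0.36, limma adjusted p = 0.196). The eggshell genes cpg-1 and cpg-2 overlapped, at 7.66, 10.9 and 14.1 FPKM and 7.06, 14.3 and 10.6 FPKM in XO hermaphrodites, against 19.8, 10.7 and 13 FPKM and 12, 17.1 and 9.48 FPKM in XX males. Yolk protein genes were high in 1 library: vit-2 had 9.32, 0.155 and 0.127 FPKM in XO hermaphrodites, against 1.73, 0.129 and 0.197 FPKM in XX males. The gene vit-6 had 16.9, 0.287 and 0.0955 FPKM in XO hermaphrodites, against 0.864, 0.277 and 0.25 FPKM in XX males, so that XO hermaphrodite replicate 1 stood above all the others.

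**Figure D3:**
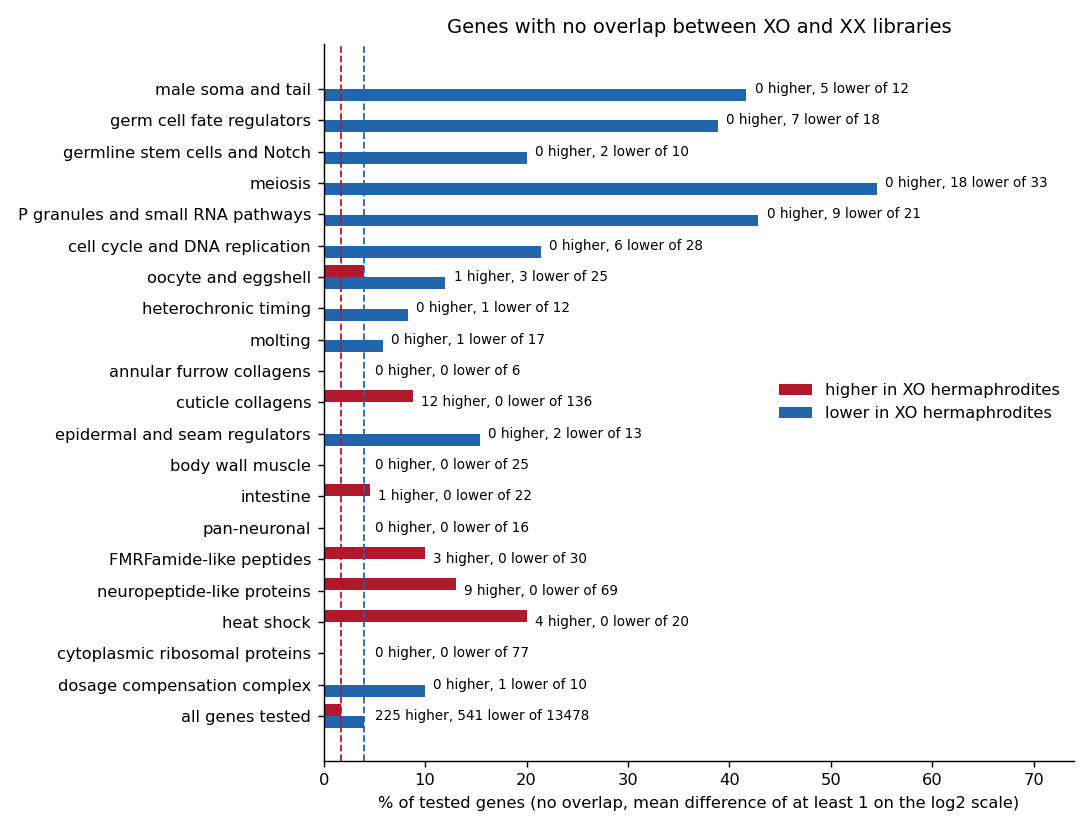
Share of each list's tested genes whose libraries did not overlap and whose mean log2 difference was at least 1, higher (red, upper bar) or lower (blue, lower bar) in XO hermaphrodites; dashed lines mark 1.67% and 4.01%, the shares of all 13478 genes. Meiosis, P granule, male soma and germ cell fate genes hold shares of 38.9% to 54.5% on the lower side, and of the lists drawn, heat shock and both neuropeptide lists hold shares of 10.0% or more on the higher side.

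RNA of sperm genes was highest in XX male replicate 1. The major sperm proteins form the cytoskeleton of the crawling sperm and act as a signal to oocytes. Their 30 genes summed to 26.1, 4.73 and 4.34 FPKM in XO hermaphrodites, against 1749, 14.6 and 68.9 FPKM in XX males. Of the 29 genes tested 1 had a mean of 1 FPKM in both groups. Only 8 would have passed the filter without XX male replicate 1, so their number of separated genes is not read. The sum was higher in XX male replicate 3 than in every XO hermaphrodite library, while XX male replicate 2 lay below XO hermaphrodite replicate 1. The gene msp-36 had 0.102, 0 and 0 FPKM in XO hermaphrodites, against 103.6, 0.166 and 2.06 FPKM in XX males. Genes of this family share near-identical sequences, so the reads behind each are uncertain and the sum is safer than any member.

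The sums of 2 other sperm lists put the libraries in the same order. The 10 nspd genes, short peptide genes of the male germline, of which 8 were tested, summed to 21.6, 12.24 and 8.03 FPKM in XO hermaphrodites, against 1168, 17.9 and 101 FPKM in XX males. The 32 genes of sperm formation and activation, of which 19 were tested, summed to 37.6, 20.6 and 20.1 FPKM in XO hermaphrodites, against 604, 24.9 and 81.8 FPKM in XX males. The sperm phosphatase gene gsp-3 had 0.313, 0.309 and 0.0586 FPKM in XO hermaphrodites, against 39.5, 0 and 4.43 FPKM in XX males. The gene spe-11, which encodes a sperm protein needed by the embryo, had 0, 0 and 0.0635 FPKM in XO hermaphrodites, against 7.78, 0 and 0.606 FPKM in XX males. The ADP/ATP translocase gene ant-1.4 had 0.475, 0 and 0.2001 FPKM in XO hermaphrodites, against 60.7, 1.16 and 22.5 FPKM in XX males, while its widely expressed relative ant-1.1 had 7157, 5117 and 4679.7 FPKM in XO hermaphrodites and 5804, 5789 and 5595 FPKM in XX males. The log2 differences of sperm genes were smaller without that library: the log2 difference of ssp-16, a gene of a family of small sperm proteins, was -3.57 with all libraries and -2.13 without it, that of nspd-4 was -3.66 with all and -2.27 without it, and that of ant-1.4 was -3.60 with all and -2.56 without it. XX male replicate 1 also had the highest level of the adult cuticle collagen gene bli-1, at 6.87, 0 and 0.0714 FPKM in XO hermaphrodites against 40.7, 0.155 and 0.574 FPKM in XX males. Without this library, 7 germ cell fate genes and 8 P granule and small RNA genes were separated and lower.

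**Figure D4:**
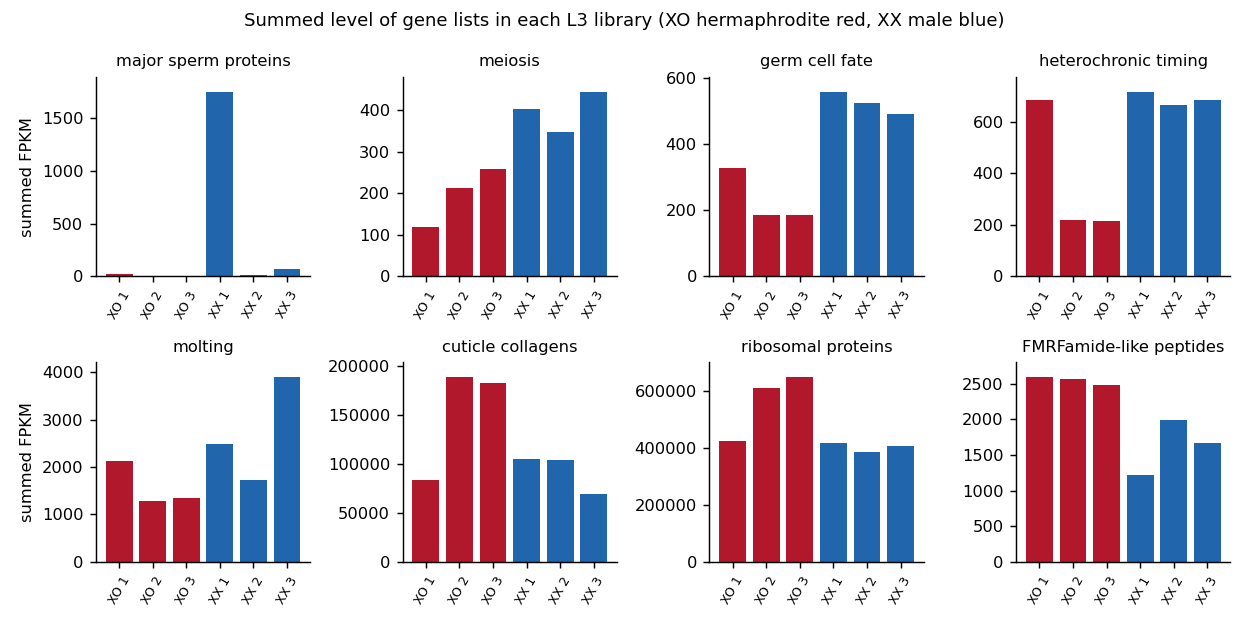
Summed FPKM of all genes with values in 8 lists, tested or not, in each library, XO hermaphrodites (red) left of XX males (blue), each panel with its own scale from 0. Major sperm protein RNA is high in XX 1 alone, meiosis and germ cell fate sums are lower in every XO library, and for timing, collagen and ribosomal protein genes XO 1 lies with the XX libraries.

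Genes of developmental timing and molting set XO hermaphrodite replicate 1 apart from replicates 2 and 3. The 12 heterochronic genes order larval cell fates in time. They summed to 684, 219 and 214 FPKM in XO hermaphrodites, against 715, 663 and 685 FPKM in XX males. In 11 of the 12 (91.7%) replicate 1 lay nearer the XX male mean than the mean of its own partners. The same held for 8685 of all 13478 genes (64.4%), so this trait of replicate 1 was not particular to timing genes. The early-larval gene lin-14 had 40.6, 4.39 and 3.44 FPKM in XO hermaphrodites, against 22.5, 40.04 and 17.4 FPKM in XX males. The transcription factor gene blmp-1 had 37.2, 6.15 and 5.33 FPKM in XO hermaphrodites, against 39.8, 40.2 and 35.2 FPKM in XX males. The steroid receptor gene daf-12 had 70.4, 9.81 and 9.88 FPKM in XO hermaphrodites, against 16.13, 52.2 and 17.3 FPKM in XX males. The separated member was mab-10, counted among the male genes too, a cofactor of the late timing factor LIN-29, at 10.9, 3.23 and 2.93 FPKM in XO hermaphrodites against 71.6, 16.23 and 17.7 FPKM in XX males (-2.30 log2, SE 0.64, limma adjusted p = 0.294). Of the 12 heterochronic genes 10 were separated and lower without XO hermaphrodite replicate 1, and 3 were without XX male replicate 2 or 3. The late gene lin-29 itself had 19.9, 7.03 and 6.28 FPKM in XO hermaphrodites, against 33.9, 13.3 and 32.9 FPKM in XX males.

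The 17 molting genes, which act as the old cuticle is shed, summed to 2125, 1279.5 and 1347 FPKM in XO hermaphrodites, against 2486, 1716 and 3897 FPKM in XX males, with XX male replicate 3 the highest for 13 of them. With all libraries the only separated gene was nas-36, whereas 13 of the 17 were separated and lower without XO hermaphrodite replicate 1, 9 without XX male replicate 2, 2 without XX male replicate 3 and none with upper quartile scaling. The gene nas-36, an astacin protease gene of cuticle shedding, was at 5.58, 5.05 and 4.65 FPKM in XO hermaphrodites against 17.1, 6.81 and 14.9 FPKM in XX males. The molting gene mlt-10 had 210.1, 64.1 and 64.5 FPKM in XO hermaphrodites, against 111, 84.3 and 356 FPKM in XX males, with overlapping groups. The 6 collagens of the annular furrows, which peak before each new cuticle is laid, summed to 770.5, 662 and 767 FPKM in XO hermaphrodites, against 769.6, 434 and 1530.1 FPKM in XX males, and all 6 were highest in XX male replicate 3. These genes are known to cycle with each molt, and the part of their levels in the differences of other lists was not tested. Of the 13 epidermal and seam regulators nhr-25 and lin-26 were separated and lower, against 7 genes without XO hermaphrodite replicate 1 and 5 without XX male replicate 3. The nuclear hormone receptor gene nhr-25, of molting and epidermal fate, had 19.2, 5.83 and 4.48 FPKM in XO hermaphrodites, against 32.4, 22.9 and 33.7 FPKM in XX males. The epidermal fate gene lin-26 had 40.1, 19.3 and 21.3 FPKM in XO hermaphrodites, against 55.4, 61.5 and 68.8 FPKM in XX males.

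Of the 136 cuticle collagen genes tested of 179, 12 were separated and higher (8.82% against 1.67% of all genes) and none lower, with a median of 0.34, or 0.59 relative to the median gene. Among the 128 that reached a mean of 1 FPKM in both groups 9 were separated and higher. Beside dpy-14, described above, col-74 had 11.6, 6.28 and 4.87 FPKM in XO hermaphrodites, against 0, 0 and 0.584 FPKM in XX males (2.80 log2, SE 0.42, limma adjusted p = 0.104). The X-linked col-165 had 9.59, 5.34 and 5.27 FPKM in XO hermaphrodites, against 0.159, 0 and 0.407 FPKM in XX males (2.67 log2, SE 0.37, limma adjusted p = 0.0928). The body shape gene dpy-17 had 20.2, 40.7 and 32.6 FPKM in XO hermaphrodites, against 8.97, 3.01 and 6.72 FPKM in XX males. The abundant member col-160 had 2630.1, 4715 and 4006 FPKM in XO hermaphrodites, against 1800.3, 2293 and 439.5 FPKM in XX males, where XX male replicate 3 was the lowest. The summed level of the list overlapped, at 83090.0, 188518 and 182692 FPKM in XO hermaphrodites against 104687, 104309 and 68754 FPKM in XX males, where XO hermaphrodite replicate 1 lay below XX male replicates 1 and 2. Without it 45 of the 136 were separated and higher and 3 lower. The higher count was 22 without XX male replicate 1, and the lower count was 8 without XX male replicate 2.

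Hedgehog-related and patched-related genes, a large epidermal family in worms, had 2 of 64 genes separated and higher and 1 lower with all libraries. Of the 64, 54 lay below 0, as did 9094 of all 13478 genes, and 48 lay below the median gene. The lower count was 22 without XO hermaphrodite replicate 1, 17 without XX male replicate 2 and 4 without XX male replicate 3. The secreted family members grd-3 and grd-10 had 262, 278 and 271 FPKM and 526, 464 and 513 FPKM in XO hermaphrodites, against 148, 139.9 and 38.9 FPKM and 207, 278 and 125 FPKM in XX males. F43D9.1, the patched-related gene ptr-25, had 10.7, 4.24 and 5.4 FPKM in XO hermaphrodites, against 17.4, 18.3 and 12.4 FPKM in XX males.

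None of 25 body wall muscle genes, 9 pharyngeal muscle genes, 16 pan-neuronal genes, 13 neurotransmitter genes or 10 touch neuron genes was separated in either direction. Leaving out XO hermaphrodite replicate 1, 4 body wall muscle, 2 pharyngeal muscle, 3 pan-neuronal and 1 neurotransmitter genes were separated and lower. In the same setting 2131 of all 13478 genes were, so these counts are not read as a trait of muscle or neurons. Of the pharyngeal muscle genes, 1 was lower without XX male replicate 2 and 1 was higher with upper quartile scaling. The muscle myosin gene unc-54 had 1364, 968 and 917 FPKM in XO hermaphrodites, against 1578, 1423 and 1327 FPKM in XX males. The body wall muscle list summed to 23812, 20634 and 20734 FPKM in XO hermaphrodites and 22081, 20102 and 19673 FPKM in XX males. Among 22 intestinal genes only ftn-1, the iron storage protein ferritin, was separated, while without XO hermaphrodite replicate 1 or XX male replicate 2 there were 2 higher and 2 lower. The ftn-1 level was 26.9, 58.7 and 69.6 FPKM in XO hermaphrodites against 16.7, 22.5 and 17.5 FPKM in XX males. The intestinal peptide transporter gene pept-1 had 125, 28.4 and 27.3 FPKM in XO hermaphrodites, against 77, 88.3 and 96.4 FPKM in XX males, where XO hermaphrodite replicate 1 was the highest of all. In the neuronal genes the same library was the highest of the 6 for 10 of 16, as for rab-3, a synaptic vesicle gene, at 43.8, 11.6 and 14.2 FPKM in XO hermaphrodites against 26.7, 39.6 and 24.9 FPKM in XX males. The touch neuron tubulin gene mec-7 had 66, 70.5 and 60.4 FPKM in XO hermaphrodites, against 39.6, 37.2 and 41.5 FPKM in XX males, with no overlap at a log2 difference of 0.72.

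Of 30 FMRFamide-like peptide genes 3 were separated and higher (10.0%) and none lower, and of 69 genes of neuropeptide-like proteins 9 were higher (13.04%) and none lower; with upper quartile scaling the counts were 12 and 15. Leaving out 1 library gave 2 to 8 higher FMRFamide-like and 7 to 13 higher neuropeptide-like genes, the highest without XX male replicate 2. The lowest were without XX male replicate 1, and for neuropeptide-like genes equally without XO hermaphrodite replicate 2. Without XO hermaphrodite replicate 3, 1 neuropeptide-like gene was lower. The medians were 0.67 and 0.50, or 0.92 and 0.75 relative to the median gene. The FMRFamide-like sums, over 31 genes with values, did not overlap. They were 2593, 2566 and 2486 FPKM in XO hermaphrodites against 1220.3, 1993 and 1665 FPKM in XX males, and XO hermaphrodite replicate 1 lay with its group. The neuropeptide-like sums, over 75 genes with values, overlapped. They were 8075, 8228 and 10958 FPKM in XO hermaphrodites against 6876, 9289 and 6485 FPKM in XX males. The peptide gene flp-21, whose product acts on the NPR-1 receptor, had 142, 151 and 130.3 FPKM in XO hermaphrodites, against 44.8, 85.2 and 53.8 FPKM in XX males. The gene flp-8 had 107, 89.5 and 70.3 FPKM in XO hermaphrodites, against 23.9, 30 and 65.7 FPKM in XX males, with XX male replicate 3 close to the XO hermaphrodites. The cholecystokinin-like peptide gene nlp-12 had 277, 305 and 251 FPKM in XO hermaphrodites, against 61.4, 159 and 61 FPKM in XX males (1.71 log2, SE 0.39, limma adjusted p = 0.246). No peptide gene was called.

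Of 30 insulin-like peptide genes 4 were separated and higher and 1 lower, and leaving out 1 library gave 3 to 5 higher and 0 to 3 lower. The gene ins-13 had 4.67, 51.7 and 27.3 FPKM in XO hermaphrodites, against 0.902, 3.33 and 1.54 FPKM in XX males, a log2 difference of 2.88 (SE 0.75, limma adjusted p = 0.272) with a wide spread among the XO hermaphrodites. The gene ins-39 was high in XO hermaphrodite replicate 1, at 25.6, 2.19 and 1.56 FPKM in XO hermaphrodites against 0, 0 and 0.272 FPKM in XX males. The gene lower in XO hermaphrodites was ins-6, known for its part in leaving the dauer stage, at 5.999, 5.91 and 11.8 FPKM in XO hermaphrodites against 19.9, 16.3 and 17.1 FPKM in XX males. Of the 1339 chemoreceptor genes 28 reached the filter, and none was separated with all libraries; 2 were higher and 1 lower without XO hermaphrodite replicate 1.

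Of 20 heat shock genes tested, 4 were separated and higher, of which hsp-16.48 and hsp-16.49 have identical values and may count the same reads. The gene hsp-12.3 passed the filter only through the XO hermaphrodites; the count was 7 without XX male replicate 1 and 6 without XO hermaphrodite replicate 2. Beside hsp-12.3, hsp-16.2 had 23.2, 13 and 10.5 FPKM in XO hermaphrodites, against 9.4, 1.85 and 4.33 FPKM in XX males. The gene hsp-16.48 had 145, 77.1 and 66.1 FPKM in XO hermaphrodites, against 62.8, 26.2 and 20.5 FPKM in XX males, with XO hermaphrodite replicate 1 the highest for both. The constitutive chaperone gene hsp-1 overlapped, at 1610.2, 1150.4 and 1286 FPKM in XO hermaphrodites and 1618, 1302 and 1518 FPKM in XX males.

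Of 177 nuclear hormone receptor genes 1 was higher (0.565%) and 3 were lower (1.69%). Of 98 C-type lectin genes 1 was higher (1.02%) and 5 were lower (5.10%). The shares of all genes were 1.67% and 4.01%, so neither list stood out. Among the 169 receptor genes with a mean of 1 FPKM in both groups 1 was higher and 2 lower. Among the 84 such lectin genes 1 was higher and 2 lower. There were 13 lower nuclear hormone receptor genes and 6 higher and 16 lower lectin genes without XO hermaphrodite replicate 1, and 7 higher and 14 lower lectin genes without XX male replicate 2. None of 32 lysozyme and saposin-like genes, 42 respiratory chain genes or 65 mitochondrial ribosomal protein genes was separated with all libraries. Without XO hermaphrodite replicate 1, 3 lysozyme and saposin-like genes were higher, and 1 lysozyme or saposin-like, 1 respiratory chain and 2 mitochondrial ribosomal protein genes were lower. Of all 13478 genes 519 were then higher and 2131 lower. Of 17 genes of fatty acid synthesis only elo-7, a fatty acid elongase gene, was separated and lower, at 0, 0 and 0.0683 FPKM in XO hermaphrodites against 8.55, 0.448 and 2.01 FPKM in XX males. It passed the filter only through the XX males, and 8 of the 17 were separated and lower without XO hermaphrodite replicate 1. Among 26 fungus-induced peptide genes 3 were higher (11.5%) and 1 lower (3.85%), beside 1.67% and 4.01% of all genes. Of the 22 with a mean of 1 FPKM in both groups 1 was higher and none lower. The other separated members passed the filter only through the group where they were high. Of the 26, 6 were higher without XO hermaphrodite replicate 1 or 2 and 1 without replicate 3. The gene fip-2 had 97.9, 89.4 and 130.8 FPKM in XO hermaphrodites, against 80.9, 29.1 and 53.2 FPKM in XX males.

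Of 6 linker histone genes hil-7 and hil-1 were separated and higher (33.3%). The hil-1 level was 7.58, 16.16 and 18.1 FPKM in XO hermaphrodites against 2.32, 3.5 and 1.29 FPKM in XX males, whereas hil-3 overlapped, at 82.5, 102 and 95.6 FPKM in XO hermaphrodites and 141, 79.3 and 232 FPKM in XX males. None of 67 core histone genes was separated with all libraries, 7 were higher without XO hermaphrodite replicate 1 and 2 were lower without XX male replicate 2. Reads of replication histones without poly(A) tails are poorly sampled by the oligo(dT) selection used. The 78 cytoplasmic ribosomal protein genes summed to 422750.0, 609918 and 648218 FPKM in XO hermaphrodites, against 415546, 386433 and 406979 FPKM in XX males. Of these 77 were tested, and none was separated. Replicate 1 of the XO hermaphrodites lay nearer the XX male mean than the mean of its partners for 69 of the 77 genes. That is 89.6%, against 64.4% of all genes. The list's median of 0.42 was 0.00 with quantile normalization. Without XO hermaphrodite replicate 1, 16 of the 77 were separated and higher, and 5 were with upper quartile scaling. Of 33 proteasome genes the subunit gene rpn-6.2 was separated and lower, at 3.17, 1.9 and 2.32 FPKM in XO hermaphrodites against 16.24, 3.58 and 14.5 FPKM in XX males.

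**Figure D5:**
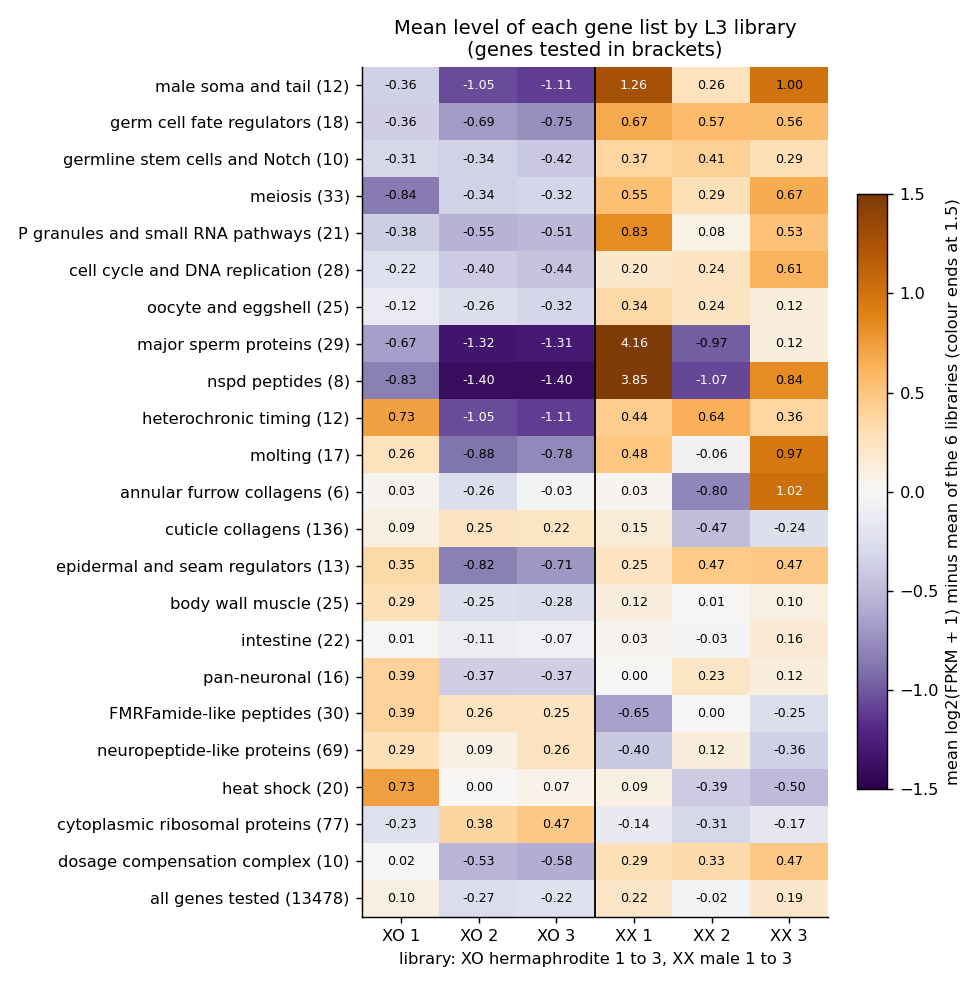
Mean log2(FPKM + 1) of each list's genes in each library, minus the mean of the 6 libraries (orange above, purple below, values printed), XO hermaphrodites left and XX males right of the line. The means take all genes of a list with values, tested or not, and the brackets give the number tested. Germline lists are negative in all XO libraries, the heterochronic, molting and epidermal regulator lists are positive in XO 1 but negative in XO 2 and XO 3, and major sperm protein and nspd lists are high in XX 1.

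The X chromosome was examined because its number differs between the groups. Of 1945 X-linked genes 42 were separated and higher (2.16%) and 44 lower (2.26%), and of 11533 autosomal genes 183 were higher (1.59%) and 497 lower (4.31%). Without XO hermaphrodite replicate 1, 67 X-linked genes were higher and 346 lower, against 452 higher and 1785 lower autosomal genes. Both shares then had the opposite order between X and autosomes, so that order depends on this library. The median log2 difference was -0.25 for X-linked and -0.24 for autosomal genes. Per library, the median X-linked gene minus the median autosomal gene was 0.167, -0.081 and -0.079 log2 units in XO hermaphrodites, against -0.007, 0.113 and -0.044 in XX males. The groups overlapped, and their means differed by -0.018 log2 units (exact permutation test over the 3 and 3 libraries, two-sided, p = 0.8, where the smallest possible p is 0.1). XO hermaphrodite replicate 1 was the highest and its partners were the lowest of the 6. By chromosome, the separated lower share was highest on chromosome I, at 5.59% of 2202 genes. With upper quartile scaling it was highest on chromosome IV, at 73 of 2289 genes against 66 of 2202 on chromosome I. The separated higher share was highest on chromosome V, at 2.25% of 2665 genes, close to the 2.16% of the X chromosome.

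On the X chromosome, the 3 most abundant separated genes in each direction were named. On the higher side, nspc-19 and nspc-17, of a family of near-identical small peptide genes whose reads may be shared, had 414, 101 and 92.6 FPKM and 389, 96.2 and 97.5 FPKM in XO hermaphrodites, against 50.7, 53.5 and 54 FPKM and 40.3, 40.7 and 70.6 FPKM in XX males. The fatty acid binding protein gene lbp-1 had 232, 122 and 86.9 FPKM in XO hermaphrodites, against 71.4, 47.9 and 59.7 FPKM in XX males. On the lower side, F23A7.8 had 41, 32.5 and 60.2 FPKM in XO hermaphrodites, against 226, 159 and 230.3 FPKM in XX males (-2.201 log2, SE 0.31, limma adjusted p = 0.101), and F23A7.4 had 243, 132 and 335 FPKM in XO hermaphrodites, against 737, 415 and 1152 FPKM in XX males. The astacin protease gene nas-15 had 38.9, 25.4 and 24.6 FPKM in XO hermaphrodites, against 49.8, 61.2 and 85.8 FPKM in XX males.

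Some genes stood apart in 1 library. The globin gene glb-1 was high in XO hermaphrodite replicate 1, at 346, 34.1 and 35 FPKM in XO hermaphrodites against 22.1, 30.1 and 19.6 FPKM in XX males. The gene him-5, whose protein promotes X chromosome crossovers in meiosis, was low there, at 1.21, 47.3 and 93.4 FPKM in XO hermaphrodites against 57, 72.9 and 84.1 FPKM in XX males. The lipase-related gene lips-15 had 2.02, 96.7 and 81.9 FPKM in XO hermaphrodites, against 64.3, 67.9 and 47.2 FPKM in XX males. Y38E10A.14 had 2.45, 51.1 and 55 FPKM in XO hermaphrodites, against 73.9, 109.8 and 154 FPKM in XX males. In XX male replicate 1, H12I19.115 had 178 FPKM and was listed at 0 in the other 5 libraries, and the lectin gene clec-47 was low there, at 11.6, 55.2 and 55.7 FPKM in XO hermaphrodites against 1.42, 24.5 and 20.7 FPKM in XX males. Y71H2AM.4, the gene nduc-2 of current annotation, had the largest log2 difference of the separated higher genes, at 87.6, 216 and 74.4 FPKM in XO hermaphrodites against values near 0 in XX male replicates 1 and 2 and 21.8 FPKM in replicate 3. In young adults it had 36.7, 0.00175 and 3.42 FPKM in XO hermaphrodites and values near 0 in all 4 XX male libraries.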

How the data were processed

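RNA of whole worms was sequenced after poly(A) selection on oligo(dT) beads with strand-marking libraries, as the labels' protocols say. Gene levels were deposited by the authors as FPKM in 1 table of the whole series. The values were made with Cufflinks 2.2.0, per the submitters' processing notes. The aligner, genome build and annotation are each not given in the sources consulted. All 14 value columns were matched to samples by name. Of 20417 rows, 6 repeats and 35 genes empty in the L3 columns, 14 of them mitochondrial, were left out. The depth is not recorded, so intervals of counting error are not given.

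Genes that averaged 1 FPKM or more across the 6 L3 libraries were tested on log2(FPKM + 1) with limma 3.58.1 (R 4.3.3; lmFit and eBayes with trend, 6 libraries, no block) and Benjamini-Hochberg adjustment over 13478 genes. The pseudocount of 1 understates changes of low genes. The script was first tested on simulated data. Tables and figures were made with Python 3.11.15, pandas 2.3.3, numpy 2.4.6, scipy 1.17.1 and matplotlib 3.10.9. Group labels came from the sample titles.

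The members, the 48 gene lists and the tests were chosen with earlier results of these data known. Named by rule were the called genes, the 8 largest separated differences per direction at 10 FPKM or more in the higher group, up to 3 separated genes per list and direction at 5 FPKM or more, 13 regulators, 6 genes per direction that stood apart in each replicate 1, and the 3 most abundant separated X-linked genes per direction. Other list members were named for their roles after their values were seen. Current names were found for 19175 IDs, and 7 list names were not matched. Alternatives were pseudocounts, filters, scalings, a fit of 13 libraries, array weights, a replicate block and left-out libraries.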

Additional observations from a re-analysis of the deposited data

How the results depend on the processing

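The counts of called genes depended on the fit, while the signs of the 9 called genes did not change under any alternative run. In place of 4 higher and 5 lower, limma called 1 and 1 without a filter, 2 and 3 at a mean of at least 5 FPKM, 3 and 2 with a pseudocount of 5, and 7 higher with upper quartile, median ratio or quantile scaling. The fit of all 13 libraries, which adds the spread of the young adults, called 228 and 738, array weights called 1418 and 5185, and an adjusted p under 0.1 called 5 and 8. Leaving out 1 library in turn gave 0 to 279 higher and 1 to 1812 lower calls, the highest without XO hermaphrodite replicate 1. Leaving out both replicates 1 together, chosen after seeing the data, gave 2 and 1.

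In place of 225 higher and 541 lower, 92 and 148 genes were separated with a pseudocount of 5, 147 and 349 at a mean of at least 5 FPKM, 134 and 1051 with a common sum, 412 and 307 with scaling to the upper quartile, 394 and 318 with scaling by median ratios, 441 and 272 after quantile normalization, and 526 and 2044 without both replicates 1. The range on leaving out 1 library was 260 to 519 higher and 469 to 2131 lower; without XX male replicate 2 it was 395 and 1433. The X minus autosome difference of -0.018 changed sign to 0.0079 with a pseudocount of 5 and 0.0031 with quantile normalization, and it ranged from -0.100 to 0.032 on leaving out 1 library. The causes were not tested.

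With the replicate number as a block limma called 5 higher and 7 lower. Same-numbered libraries had deviations correlated at -0.038, -0.036 and -0.0015, and no sample of XO hermaphrodites correlated best with its own number. With deviations from means of only 3 libraries, these values cannot tell whether same-numbered samples shared a culture or batch.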
